A study of Mus musculus with 11 samples.

Results

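The Pax genes encode transcription factors that bind DNA through a paired domain. The family members Pax1 to Pax9 were all found in the gene annotation and made up 9 of 21627 protein-coding genes on chromosomes 1 to 19 and X. Each was taken as its gene body with 10 kb on both sides, a stretch called its window here, in mouse mm10 coordinates. DNA methylation and 3 histone marks had been read by CUT&Tag-BS, in which an antibody directs a transposase to chromatin carrying a mark and the released fragments are bisulfite converted, so that the methylation of each CpG is read on fragments taken from that mark. All 11 samples came from E14 mouse embryonic stem cells of 129/Ola background, grown with fetal bovine serum and LIF, with no genotype or treatment differing between them. Each of H3K4me1, H3K9me3 and H3K27me3 was profiled from 250000 cells with bisulfite and, as 1 control per mark, without it. The H3K4me1 and H3K9me3 bisulfite samples each came as run 1, with 35-bp reads, and run 2, with 75-bp reads, and H3K27me3 was also profiled with bisulfite from 4000, 20000 and 100000 cells. The labels name no separate cultures, so nothing here measures the spread between cultures.

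In vertebrates the family falls into 4 groups of close paralogues, Pax1 with Pax9, Pax2 with Pax5 and Pax8, Pax3 with Pax7, and Pax4 with Pax6, which act in the vertebral column, the kidney, thyroid and B cells, the neural crest and muscle, and the pancreas and eye. In embryonic stem cells, genes for such developmental regulators are known targets of the Polycomb proteins, which place H3K27me3 over CpG-rich starts. H3K4me1 marks enhancers and the flanks of starts, and H3K9me3 marks heterochromatin. DNA methylation is usually high across mouse chromosomes and low at CpG-rich starts.

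A methylation level here is the number of methylated calls over all calls, in percent, with a Wilson 95% interval that covers counting error only. The 8 bisulfite libraries held from 377316 to 37159887 calls on chromosomes 1 to 19 and X. At CpGs called once in each run, the runs of a mark gave the same state at 97.6% (H3K4me1) and 95.9% (H3K9me3) of CpGs, above the 77.4% and 83.5% between the calls of CpGs called 2 times in run 2. The runs were therefore counted as 1 library per mark. As a look at the cell type, a H3K4me1 peak lay in the windows of 8 of 8 embryonic stem cell markers and of 6 of 6 fibroblast markers, against 51.4% of all windows. A H3K27me3 peak lay in 1 of the 8 and 4 of the 6, against 47.5% of all windows. The H3K4me1 counts thus did not tell these cell types apart.

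The promoters of the family differed in CpG number and in methylation, and 4 of them are printed to show that range. They come from RefSeq (GRCm38.p6), which gave 10 promoters for 7 of the 9 genes, each from 250 bases before to 50 after the start. Each reads 5′ to 3′ with CpGs (the letters CG, which read the same on both strands) in capitals. At least 1 CG was present in 94.7% of all promoters of this length.
Pax2, start 3, chr19:44756656-44756955, plus strand: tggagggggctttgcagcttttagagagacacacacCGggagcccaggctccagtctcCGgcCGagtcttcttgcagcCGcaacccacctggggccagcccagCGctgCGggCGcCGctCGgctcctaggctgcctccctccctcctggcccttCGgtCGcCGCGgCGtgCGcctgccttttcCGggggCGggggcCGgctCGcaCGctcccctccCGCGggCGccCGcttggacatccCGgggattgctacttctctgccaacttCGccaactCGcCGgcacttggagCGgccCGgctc
Pax7, chr4:139832919-139833218, minus strand: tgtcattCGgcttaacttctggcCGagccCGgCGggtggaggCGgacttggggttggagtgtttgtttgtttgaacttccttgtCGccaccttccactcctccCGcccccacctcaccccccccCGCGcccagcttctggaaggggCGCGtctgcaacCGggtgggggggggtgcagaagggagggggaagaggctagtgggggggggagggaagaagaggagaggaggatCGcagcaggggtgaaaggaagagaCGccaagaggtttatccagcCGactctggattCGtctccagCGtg
Pax5, chr4:44710645-44710944, minus strand: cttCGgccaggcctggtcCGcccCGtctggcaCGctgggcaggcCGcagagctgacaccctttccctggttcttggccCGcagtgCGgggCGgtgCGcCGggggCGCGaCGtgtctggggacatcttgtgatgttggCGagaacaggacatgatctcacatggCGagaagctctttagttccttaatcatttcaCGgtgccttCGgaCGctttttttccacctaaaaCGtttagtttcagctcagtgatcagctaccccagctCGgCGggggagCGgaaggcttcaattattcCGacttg
Pax8, chr2:24475550-24475849, minus strand: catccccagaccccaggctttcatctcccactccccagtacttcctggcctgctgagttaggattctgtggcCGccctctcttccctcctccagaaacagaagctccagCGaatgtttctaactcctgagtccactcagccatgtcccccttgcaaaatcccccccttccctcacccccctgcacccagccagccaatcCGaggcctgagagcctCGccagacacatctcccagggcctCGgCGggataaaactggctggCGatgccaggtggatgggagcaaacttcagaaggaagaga

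In the H3K27me3 library from 250000 cells, the Pax2 promoter at start 3 held 5 methylated of 1213 calls over its 30 CpGs, a level of 0.412% (0.176 to 0.961). Pax7 held 2 methylated of 538 calls, 0.372% (0.102 to 1.35), over its 17 CpGs. No CpG with at least 10 calls, which were 30 at Pax2 and 14 at Pax7, passed 2.27%. The Pax5 promoter held 23 CpGs and a level of 14.7% (12.8 to 16.8, 1204 calls). Its CpGs were uneven: those 13 and 24 bases after the start stood at 52% (13 of 25 calls) and 69.2% (18 of 26), while that 23 bases before it had 0 of 29 calls. The Pax8 promoter held 7 CpGs, and all 7 were methylated in most calls, from 52.4 to 88.9%, with 71.7% over 120 calls (63.0 to 79.0). The Pax8 interval does not overlap those of the other 3 sequences. The promoter at start 1 of Pax2 also held 7 CpGs and stood at 2.56% of 665 calls (1.60 to 4.06). In all promoters, 47.6% held fewer CpGs than that of Pax8 and 88.2% fewer than that of Pax2 start 3.

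All 9 Pax windows held a H3K27me3 peak in the deposited unified list of the mark, which joins the peaks of its libraries, against 47.5% of all windows. In 8 of 9 windows more than 40% of the bases lay under these peaks, against 9.0% of all windows, and the median was 61.8%, against 0 for all. Windows over 80 kb, which are less often filled in this way (2.31%), included Pax2, Pax5, Pax3 and Pax7, all over 40%. In the Pax1 and Pax9 group, whose proteins pattern the sclerotome, the share was 79.9% for Pax1 and 53.5% for Pax9. In the next group it was 61.8% for Pax2, a kidney and ear regulator, 47.0% for Pax5, the B cell commitment factor, and 18.2% for Pax8, a thyroid and kidney regulator and the lowest of the family. Pax3 and Pax7, regulators of neural crest and muscle precursors, had 68.9% and 67.6%. Pax4, which acts in pancreatic endocrine cells, had 52.4%, and Pax6, the eye regulator, 68.5%.

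Single peaks were wide. Of the 29 unified H3K27me3 peaks touching the windows, 5 were over 40 kb (Pax7 69.6 kb, Pax3 53.8 and 43.3 kb, Pax2 51.3 kb, Pax6 44.6 kb), a width that 158 of all 18122 peaks (0.872%) reached. The extent was often larger in the control without bisulfite. At Pax8 the share of the window under peaks was 18.2% in the control and 11.04% in the bisulfite library from 250000 cells, and at Pax4 it was 52.4% and 39.2%. At Pax9 both gave about the same share, 53.5% and 52.9%.

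H3K4me1 peaks lay in 8 of 9 Pax windows, against 51.4% of all. Pax4 had none. Pax6 stood highest, with 48.0% of its window under H3K4me1 peaks, followed by Pax2 with 18.1% and Pax7 with 11.03%. Pax3 had 0.948%, from 1 peak of 1.10 kb at its start that was in the control list and in neither bisulfite run. Of the H3K4me1 peak bases in the Pax windows, 87.3% also lay under H3K27me3 peaks, against 11.8% over the whole genome. These shares were lowest at Pax8 (37.9%), where a 3.82-kb H3K4me1 peak in the gene body had no H3K27me3 peak over it, and were 100% at Pax1, Pax9, Pax5 and Pax3.

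A H3K9me3 peak was found in 1 of 9 Pax windows, against 21.2% of all windows. It touched the outer edge of the Pax4 window, past the gene (chr6:28457003-28460765). Its CpGs stood at 89.8% of 166 calls in H3K9me3 run 2.

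**Figure D1:**
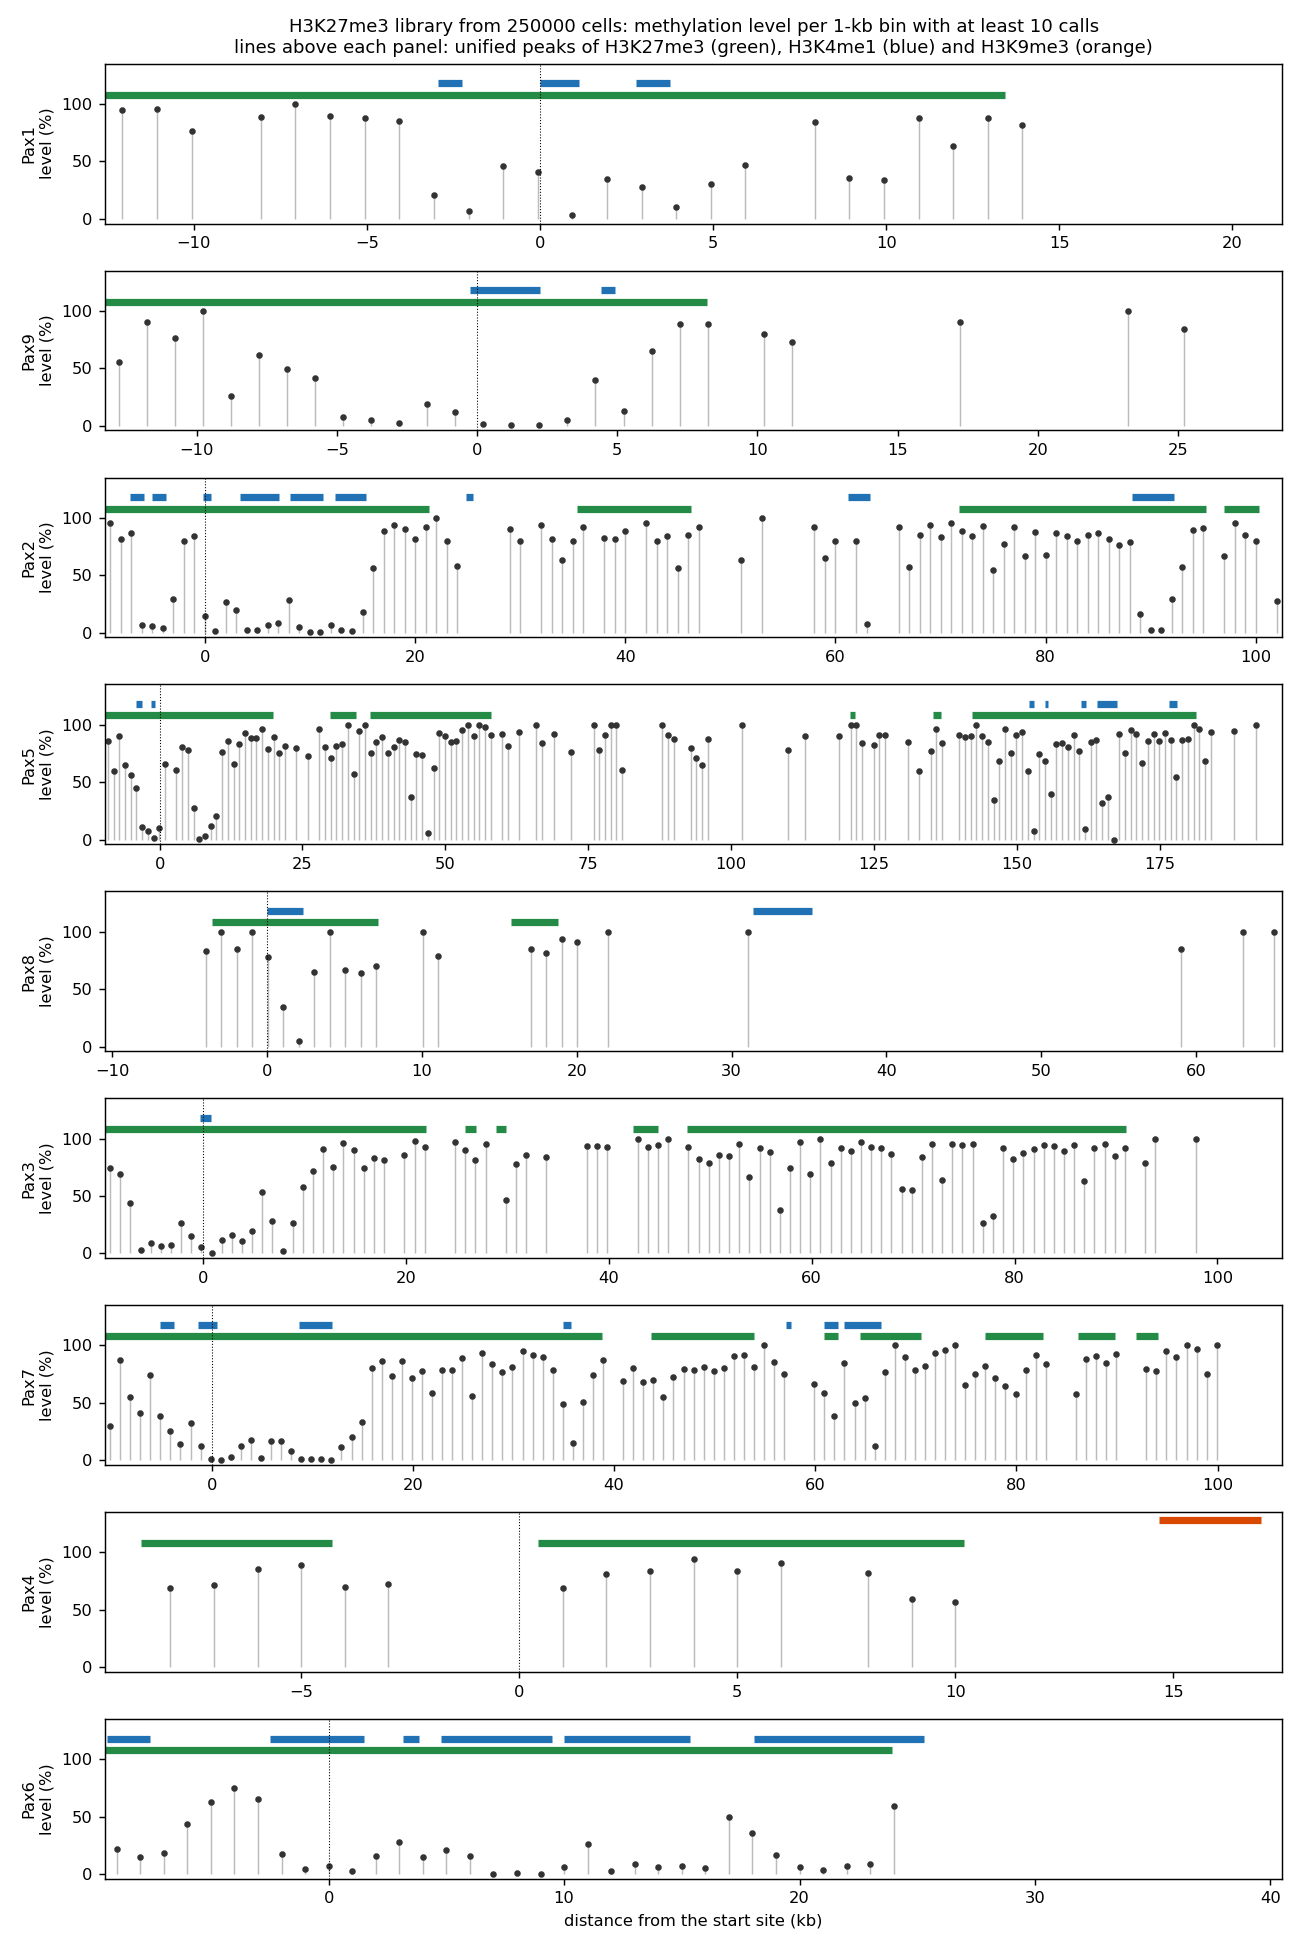
Distance from the start site (kb, horizontal) against the methylation level of 1-kb bins with at least 10 calls in the H3K27me3 library from 250000 cells (points, %), with 1 panel per gene and unified peaks as lines above it. Each point is drawn at the right edge of its bin. Bins under 15% lie near the starts of all members but Pax4 and also far along Pax2, Pax5 and Pax7. An example is the bin centred at 89.5 kb of Pax2, with 76 of 3417 calls methylated. Many bins farther along the long genes are high under the same mark. For Pax3 and Pax4 the strand was not given and the zero is the gene end with more CpGs.

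The level of the windows differed between the members by more than their counting error. In the H3K27me3 library from 250000 cells it was 11.1% at Pax9 (10.7 to 11.4, 29928 calls), 13.2% at Pax6 (12.9 to 13.5), 14.1% at Pax2 (13.8 to 14.4), 16.7% at Pax7 (16.3 to 17.0) and 19.2% at Pax1 (18.7 to 19.7). Pax3 followed at 22.4% (21.9 to 22.8), then Pax8 at 26.5% (25.3 to 27.7) and Pax5 at 26.5% (26.1 to 26.9), which did not differ beyond their intervals. Pax4 stood apart at 74.6% (71.6 to 77.3, 877 calls). The median of all windows with at least 20 calls was 46.0%.

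These levels weight each CpG by its calls, and calls were concentrated under the peaks. The mean of single CpG levels was higher in every window, from 16.8% at Pax6 and 28.0% at Pax9 to 64.1% at Pax5, 69.5% at Pax8 and 79.4% at Pax4. Over the 9 windows together it was 48.8%, against 18.0% of calls. Pax6 was thus the member with the lowest mean over CpGs, and Pax9 the lowest over calls. The number of calls per CpG, relative to the genome mean of the library, had a median of 14.4 over the Pax windows and 0.263 over all windows.

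In H3K4me1 run 2, Pax9 was again lowest, at 8.08% (6.36 to 10.2, 767 calls), Pax6 had 13.8% of 5520 calls, and Pax1, Pax2, Pax5 and Pax7 lay from 17.4 to 22.9%. Pax3 stood at 29.3% of 222 calls, Pax8 at 35.4% of 740, and Pax4 was again highest, at 66.7% with only 30 calls. Run 1 gave 6.89% at Pax9, 14.0% at Pax6 and 36.8% at Pax8. H3K9me3 run 2 gave few calls, from 46 to 241 a window, with levels from 26.6% at Pax1 (17.3 to 38.5) to 86.5% at Pax3 (80.8 to 90.7). Pax4, the only window with a H3K9me3 peak, had the most calls, 241, and a level of 79.3%.

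**Figure D2:**
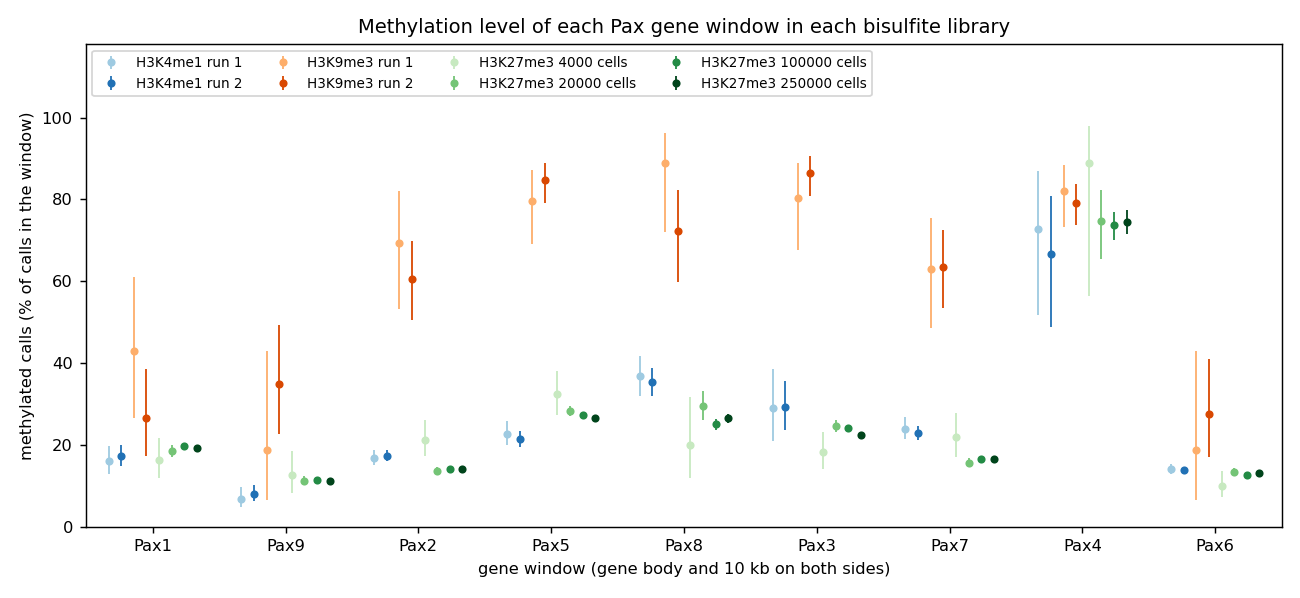
Methylation level (%) of each Pax window, in paralogue order, in the 8 bisulfite libraries, with Wilson 95% intervals as bars. Pax4 is the only window in which all 8 libraries lie above 60%, and H3K9me3 points carry the widest bars except at Pax4, where H3K27me3 from 4000 cells rests on 9 calls.

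Sorted by the marks over them, the CpGs of the Pax windows formed a series when pooled over the family. Under both H3K27me3 and H3K4me1 peaks the level was 6.26% of 139205 calls (6.14 to 6.39) in the H3K27me3 library, under H3K27me3 alone 28.6% of 133201, under H3K4me1 alone 47% of 100, and under neither 84.2% of 3255. H3K4me1 run 2 gave 10.7, 31.1, 46.1 and 69.8% for the same parts, and H3K9me3 run 2 gave 12, 71.7, 53.8 (13 calls) and 86.8%. CpGs under H3K4me1 alone came only from Pax2, Pax8, Pax7 and Pax6. In the H3K27me3 library the part under H3K27me3 alone was higher than that part at Pax8 (74.6% against 37.5% of 16 calls) and Pax2 (50.5% against 36.6% of 41). It was lower at Pax7 (26.2% against 57.1% of 35) and Pax6 (36.9% against 75% of 8). At Pax3 the part under both marks had 0.787% of 4318 calls, the lowest of the family, and at Pax8 14.6% of 4329, the highest.

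Inside against outside the H3K27me3 peaks of its own window, the level was lower in 7 of the 8 windows tested, by 60.6 points at Pax5 to 72.5 points at Pax9 (Fisher's exact test on calls, two-sided, Benjamini-Hochberg over all windows). The same call was made in 74.4% of all windows tested, and the opposite one in 10.1%, which no Pax window showed. The largest adjusted p of the 7 was 1.32e-15, at Pax6, where only 31 calls lay outside. Pax4 had 73.7% inside and 84% outside, with an adjusted p of 0.0598 by Fisher's exact test, and was called lower with the library from 100000 cells. Pax1 had 13 calls outside and was not tested. The means of single CpG levels were closer together, 54.0% inside and 86.1% outside at Pax5, 49.4% and 89.4% at Pax8, and 77.8% and 87.5% at Pax4. Calls that share a fragment, or copies of it made by PCR, depend on each other, so these p-values are too small and compare parts of 1 library.

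The H3K27me3 peaks themselves were of unlike methylation. The 8 peaks that held a start used here had levels from 12.5 to 22.3% and a median width of 41.3 kb. The 21 peaks that held none had a median level of 80.6% and a median width of 4.39 kb, and 18 of them stood above 50%. Among the 21 was the peak over the end of Pax4 not used as its start, at 71.2% of 594 calls. The end used lay in no H3K27me3 peak. With the other end as the Pax4 start, the levels of start peaks would reach 71.2%. Over all unified H3K27me3 peaks with at least 20 calls, 51.9% stood above 50%. The lowest of the 21 was a 23.6-kb peak over the end of Pax2, at 20.2% of 10048 calls, just below the 22.3% of the peak at the Pax8 start.

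Within a gene the contrast was plain at Pax3. Its 53.8-kb peak over the start (chr1:78175143-78228901) had 14.9% of 49444 calls methylated, and its 43.3-kb peak over the far end of the gene body (chr1:78106152-78149448) had 82.5% of 3933 calls. At Pax5 the 38.1-kb peak over the start had 16.7% of 31783 calls, and the 39.1-kb peak at the other end of the gene 55.6% of 6074. At Pax7 the 69.6-kb start peak had 16.01%, and 5 of the other 6 peaks lay from 58.6 to 88.3%, with the last at 41.9% of 43 calls. Both Pax4 peaks were methylated, at 80.8% of 208 calls and 71.2% of 594.

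**Figure D3:**
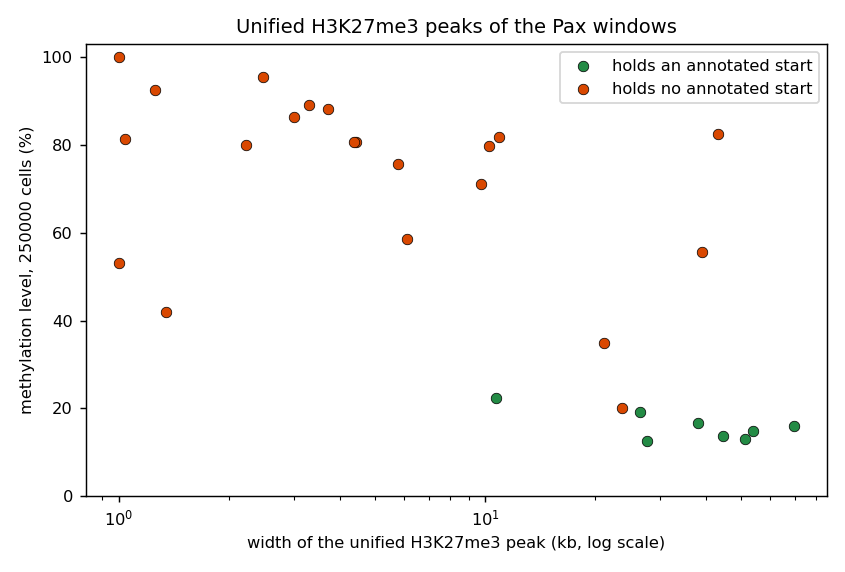
Width (kb, log scale) against methylation level (%) in the library from 250000 cells for the 29 unified H3K27me3 peaks of the Pax windows. Colour tells whether the peak holds a start, labelled annotated. For Pax3 and Pax4 this start is the gene end with more CpGs. The other end of Pax4 lies in a peak at 71.2%, coloured as holding no start. The 8 peaks with a start lie from 12.5 to 22.3%, and 18 of the 21 without one lie above 50%.

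Low methylation reached beyond single promoters at several members. A run of 1-kb bins under 15% lasting at least 5 kb was found at 3 of 9 Pax windows, Pax9 (5 kb), Pax2 (6 kb) and Pax7 (6 kb), against 1.07% of all windows. All 3 runs lay wholly under H3K27me3 peaks, with levels of 2.00% (Pax9), 2.37% (Pax2) and 1.94% (Pax7). Pax5, Pax3 and Pax6 had runs of 4 kb, Pax1 and Pax8 of 1 kb, and Pax4 had no such bin. With a limit of 20% in place of 15%, 5 of 9 Pax windows reached 5 kb, against 1.51% of all windows. A bin counted only with at least 10 calls in the H3K27me3 library from 250000 cells. The calls per CpG relative to the genome mean had a median of 14.4 over the Pax windows and 0.263 over all windows. Windows with few calls could not show a run at any methylation, so these shares do not compare methylation alone. Calls were concentrated under H3K27me3 peaks, and whether this decided where runs were found was not tested.

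Within 1000 bp of the 12 starts used, the H3K27me3 library from 250000 cells gave 0.717% at Pax7 (33 of 4600 calls), 1.24% at Pax9, 1.82% at Pax3 and 6.61% at Pax1. The 3 starts of Pax2 had 3.59, 1.33 and 0.624%, and the 2 of Pax6 4.77 and 7.70%. Pax5 and Pax8 were higher, at 20.1% (18.8 to 21.5) and 41.9% (39.3 to 44.5), against a median of 6.77% over all starts with at least 20 calls. H3K4me1 run 2 gave 22.6% of 31 calls at Pax5 and 40% of 70 at Pax8. Pax4 was methylated at either end of the gene, with 12 of 18 calls at the end with more CpGs, which was used as its start, and 20 of 24 at the other. Only the end not used lay in a H3K27me3 peak. For Pax3 the start was likewise taken as the end with more CpGs, since the annotation gave no strand for these 2 genes.

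The comparison of marks at shared CpGs asks whether the same CpG is methylated differently on fragments taken from different marks. With calls summed over the CpGs of a window called in both libraries, the H3K27me3 library from 250000 cells was at least 10 points lower than H3K4me1 run 2, at an adjusted p under 0.05, at 2 of 9 Pax windows (13.2% of all windows) and higher at 0 (8.20%). These were Pax3, with 11.5% against 28.3% (fell by 16.8 points, adjusted p = 3.97e-10), and Pax7, with 7.17% against 21.2% (fell by 14.0 points, adjusted p = 2.19e-81), by Fisher's exact test. With H3K4me1 run 1 in place of run 2, 4 of 9 were lower, against 13.8% of all windows. Such sums differ also when the calls of the libraries fall on different CpGs of the window in different proportion. On simulated calls with equal levels at every CpG, this test still called many windows, so its counts do not by themselves show a difference at the same CpG. The Cochran-Mantel-Haenszel test, which compares the libraries within each CpG and called few such windows, is therefore given beside each count. The simulated calls were independent, whereas real calls can share a fragment or its PCR copies. The simulation therefore cannot tell how often this test calls unchanged windows in the real libraries.

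Within CpGs, 0 of the 9 Pax windows were called at 10 points or more (0.222% of all windows lower and 0.824% higher), but smaller differences passed the test. The H3K27me3 library was below H3K4me1 in 9 of 9 windows, and in 50.1% of all windows tested, with a median of -2.82 points over the Pax windows and -0.01 over all. At an adjusted p under 0.05 and any size, a rule chosen after the data were seen, 5 of 9 were lower, against 3.83% of all windows, and 0 higher, against 1.77%. Without a limit on size, passing depends also on the number of calls. H3K27me3 calls per CpG, relative to the genome mean, had a median of 14.4 over the Pax windows and 0.263 over all. These shares, and those given below with other libraries, therefore do not compare the size of the differences alone. The differences that passed the Cochran-Mantel-Haenszel chi-square test were -5.27 points at Pax6 (95% interval -6.00 to -4.53, adjusted p = 1.35e-40) and -9.75 at Pax3 (-13.3 to -6.18, adjusted p = 1.58e-05). Those at Pax2, Pax9 and Pax7 were -2.82, -2.79 and -2.53 points. Pax1 had -3.15 points with an adjusted p of 0.0508 in the same chi-square test. At Pax5 the difference was -0.19 points (-1.62 to 1.25) and at Pax8 -0.65 (-3.90 to 2.61). At Pax4 the interval ran from -24.3 to 10.2 points, with 28 H3K4me1 calls.

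With the library from 100000 cells in place of that from 250000, 6 of 9 were lower, against 3.63% of all windows, Pax1 being added, and the differences at Pax6 and Pax3 were -5.38 and -9.75 points. With H3K4me1 run 1, the shallower run, only Pax2 and Pax6 passed, against 2.56% of all windows lower, with Pax6 at -5.51 points and Pax3 at -9.13 (adjusted p = 0.0815, Cochran-Mantel-Haenszel chi-square test). The H3K27me3 libraries of these comparisons share 1 H3K4me1 library, and the p-values compare libraries, not marks. Both tests and the intervals treat calls as independent. Calls from the same fragment or its PCR copies are not, so the p-values are too small, the intervals too narrow and the counts of windows passing uncertain.

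**Figure D4:**
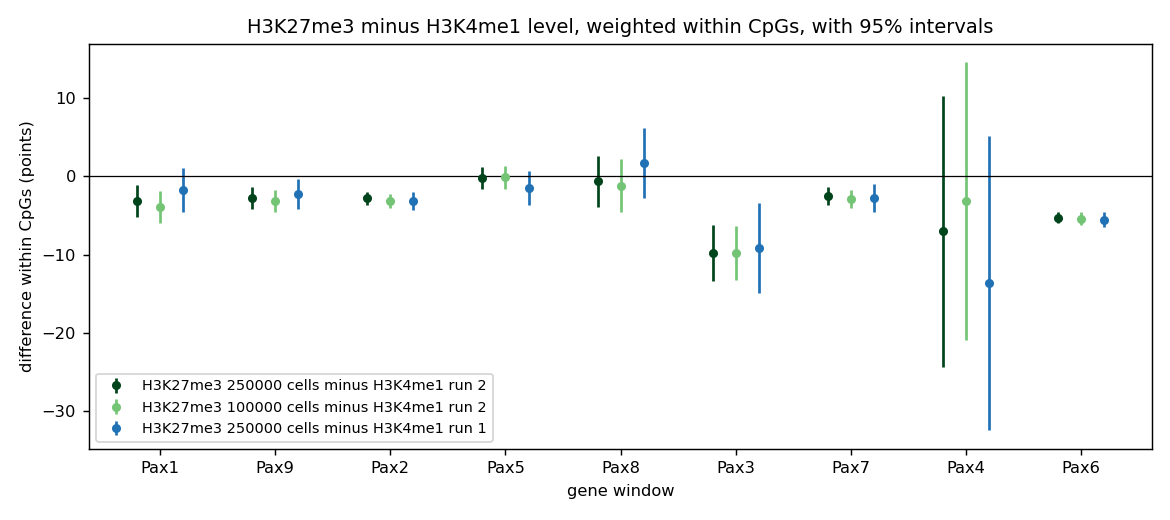
Difference in methylation level within CpGs (percentage points), H3K27me3 minus H3K4me1, per Pax window with 95% intervals, for 3 pairs of libraries. The intervals treat calls as independent. Pax2, Pax3, Pax6, Pax7 and Pax9 lie below 0 with their intervals in all 3 pairs, and the Pax5, Pax8 and Pax4 intervals include 0.

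H3K9me3 run 2 shared few CpGs with the other libraries at the Pax genes. Against H3K4me1 run 2, Pax3 was the 1 of 8 tested windows called higher (30.9% of all windows), with 72.7% of 22 calls against 36.8% of 38 (adjusted p = 0.0484, Fisher's exact test), and 0 were lower (0.265%). Within CpGs its difference was 37.3 points (12.1 to 62.4) with an adjusted p of 0.0995 in the Cochran-Mantel-Haenszel chi-square test. With H3K4me1 run 1 in place of run 2, 0 of 7 windows were called (24.5% of all windows higher and 0.115% lower). Against H3K27me3 from 250000 cells, summed calls were higher at 6 of 8 windows (34.2% of all), from 12.04 points at Pax5 to 46.6 at Pax3, and lower at 0 (0.777%), and with both H3K9me3 runs summed they were higher at 9 of 9 (35.9% of all). Within CpGs 0 of these 8 were called (1.80% of all higher and 0.0222% lower), and the difference at Pax2, for example, was 2.79 points (-3.32 to 8.90) in place of 43.6.

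The H3K27me3 lists from 4000, 20000, 100000 and 250000 cells held 4, 14, 32 and 32 peaks in the Pax windows. Calls rose with cell number, from 377316 at 4000 cells to 37159887 at 250000, so cell number and depth cannot be told apart. The Pax windows held 32 peaks in the list from 250000 cells. Of these, 4 (12.5%) were overlapped by a peak from 4000 cells, 12 (37.5%) from 20000 and 25 (78.1%) from 100000 cells, against 3.08%, 43.2% and 78.2% of all peaks of that list. Counted in bases, 1.46%, 58.9% and 88.0% of the 425.2 kb under the Pax peaks were covered, against 0.695%, 36.9% and 80.5% over the genome.

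All 11 starts outside Pax4 lay under a peak from 20000, 100000 and 250000 cells, and 0 of 11 under a peak from 4000 cells. Of the unified peaks, all 8 with a start were touched by a 20000-cell peak, and 4 of the 21 without one were. The peak over the end of Pax4 not used as its start was among the 21 and was not touched. Pax6 and Pax9 changed least, with 64.2, 66.4 and 66.8% of the Pax6 window and 47.9, 52.1 and 52.9% of the Pax9 window under peaks from 20000, 100000 and 250000 cells. Pax3 rose from 26.0 to 55.1 and 63.3%, and Pax7 from 28.6 to 46.4 and 51.2%. Pax4 had no peak at 4000 or 20000 cells and 32.8 and 39.2% at the higher numbers. At 4000 cells only Pax1 (3.22 kb), Pax2, Pax3 and Pax7 (1.00 kb each) had a peak.

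**Figure D5:**
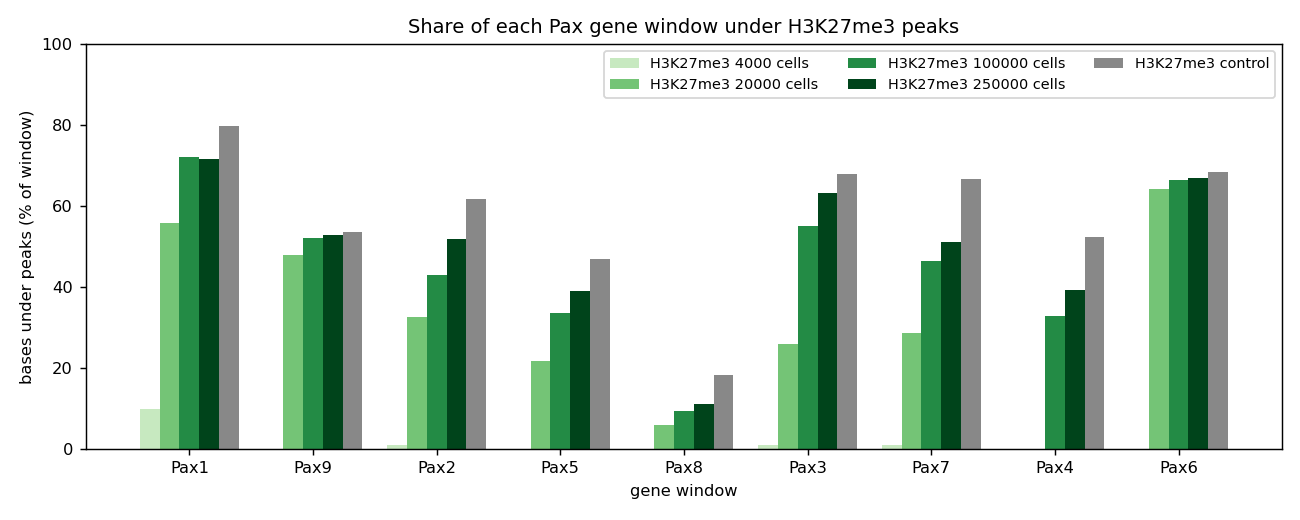
Share of each Pax window (%) under H3K27me3 peaks in the 4 bisulfite libraries, from 4000 to 250000 cells, and the control without bisulfite. Bars are single libraries with no replicate, and Pax6 and Pax9 are close to full extent at 20000 cells while Pax4 has no bar there.

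The methylation read at these cell numbers differed less than the peaks did. Summed calls at shared CpGs were higher from 4000 than from 250000 cells at 2 of 8 tested Pax windows (20.7% of all), Pax5 with 31.8% against 16.1% and Pax7 with 21.9% against 9.73%, and lower at 0 (0.926%). Within CpGs these differences were 2.25 points (-0.90 to 5.40) and 2.77 points (-0.64 to 6.18), and 0 windows of the family were called (0.689% of all higher and 0.129% lower). At 20000 cells 0 of 9 were called by either test (5.77% of all windows higher and 0.606% lower with summed calls), and at 100000 cells 0 of 9 (0.361% higher and 0.275% lower). From 100000 cells the differences within CpGs lay from -0.52 points at Pax4 to 0.26 at Pax5. A call needed 10 points. At 4000 cells a Pax window held from 9 to 350 calls, which limits what could be detected there.

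Most control peaks of the family were also found in the bisulfite libraries, where an overlap of at least 1 bp counted as found. Single libraries are compared here. Of 36 H3K4me1 control peaks in the Pax windows, 31 were found in run 2 (81.5% of all control peaks) and 32 in run 1 (84.5%). The single H3K9me3 peak was found in both runs (92.7% and 77.2% of all in run 2 and run 1). Of 28 H3K27me3 control peaks, 23 were found (70.8% of all). With 50% of a control peak required, the H3K4me1 counts were 27 in run 2 (75.4% of all) and 28 in run 1 (79.3%). The H3K27me3 count was then 19 (62.2%).

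Related genes were described from lists. In the Pax-Six-Eya-Dach network, which works with Pax proteins in sense organs and muscle, 10 of 12 windows held a H3K27me3 peak and 5 of 12 had more than 40% of their bases under one. Six2 and Six3 were covered throughout (100%), and Six4 had none. Of 8 cofactors of Pax proteins, 2 held a H3K27me3 peak, Tle2 (60.9% of bases) and Kdm6b (5.39%), and 8 a H3K4me1 peak. Of 16 genes described as targets of Pax proteins, 12 held a H3K27me3 peak, among them Neurog2 (100%), Nkx3-2 (92.2%) and Myod1 (53.4%). In the pooled test of H3K27me3 against H3K4me1, 1 of 12 network genes, 0 of 7 cofactors and 1 of 12 targets tested were lower, against 13.2% of all windows, and 0 were higher, against 8.20%.

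By the 3 window levels and the 3 shares under peaks, the genes nearest to the medians of the family among 13229 with enough calls were Ntng2, Egr2, Bcl11b, Lgi4 and Slc12a5. The distance, a Euclidean distance over the 6 percentages, was 5.70 points for Ntng2. Member by member the nearest were Prdm8 for Pax1, Chst2 for Pax9, Gata3 for Pax2, Galr1 for Pax5, Bmp8a for Pax8, Trim67 for Pax3, Ntng2 for Pax7, Ciita for Pax4 and Pou4f2 for Pax6. Other genes share some windows, such as Slc25a21 with Pax9, Elp4 with Pax6 and Fscn3 with Pax4, and their CpGs are counted in them.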

How the data were processed

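The deposited table held, per CpG and bisulfite library, methylated and all calls as raw counts that the authors made without normalization. Per the deposited peak lists, other values are positions alone, with no scores. The submitters' processing notes name mm10, cutadapt 1.12, Bismark 0.23.0, Bowtie2 2.3.0, HOMER 4.10.3 and bedtools 2.29.2. The treatment of duplicate reads is not given in the sources used here. All CpGs of the RefSeq GRCm38.p6 promoter sequences (407620) lay at a position of the table. Every count column was used (0 left out).

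Calls were summed per window with python 3.11.15, numpy 2.4.6, pandas 2.3.3 and scipy 1.17.1. Windows with at least 20 calls in both libraries, at CpGs called in both, were compared by Fisher's exact test with Benjamini-Hochberg adjustment. A call needed an adjusted p under 0.05 and 10 points. Both tests were tested on simulated data. Fisher's test on summed calls called many windows in which no CpG differed, and the Cochran-Mantel-Haenszel test stratified by CpG called few, so the latter stands beside it. The simulated calls were independent, so neither test was tried on calls that share fragments or PCR copies. Fisher's test was kept as the planned test.

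All 9 members are named. Members and lists were chosen with earlier results of these data known. The nearest genes were named by a fixed distance rule.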

Additional observations from a re-analysis of the deposited data

Results flagged for a closer look

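The bases of the Pax windows under peaks differed between bisulfite and control libraries in a direction that varied by mark. H3K27me3 from 250000 cells covered 368.2 kb with bisulfite and 432.2 kb without it, a difference of -64.1 kb. H3K4me1 covered 5.88 kb less in run 1 (-5.88 kb) and 9.71 kb less in run 2 (-9.71 kb). H3K9me3 covered more with bisulfite, by 0.854 kb in run 1 and 1.11 kb in run 2, at the single peak of the Pax4 window. Each value compares single libraries, and the difference between marks was not tested.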

How the results depend on the processing

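No paired analysis was possible because the runs of a mark are repeat sequencing of 1 library and no test was made across replicate libraries. Windows called with calls summed at shared CpGs numbered 3097 (H3K27me3 against H3K4me1), 1997 (H3K9me3 against H3K4me1), 3148 (H3K9me3 against H3K27me3), and 1006, 695 and 97 for H3K27me3 from 4000, 20000 and 100000 against 250000 cells. With the Cochran-Mantel-Haenszel test they were 151, 406, 164, 38, 1 and 0. With all CpGs called in either library they were 8461, 9937 and 8008 for the marks and 1794 and 1477 for 20000 and 100000 cells. With the gene body alone, which tests fewer windows, they were 1258 and 1897 for H3K9me3 against H3K4me1 and H3K27me3, 626 for 4000 cells, and 5237 in place of 8185 for inside against outside. With run 1 in place of run 2 they were 792 to 1066 for H3K9me3 against H3K4me1 and 1479 for H3K9me3 against H3K27me3, and Pax9 turned to 0.857 points in the first.

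Differences of single members changed sign. Within CpGs they were, for H3K9me3 against H3K4me1, -1.17 (Pax1) and -4.63 (Pax8), for 4000 cells -1.17 (Pax2) and -2.35 (Pax3), for 20000 cells -0.63 (Pax9), -0.41 (Pax2) and -0.10 (Pax7), and for 100000 cells -0.43 (Pax1), -0.052 (Pax9), -0.25 (Pax2), -0.38 (Pax3) and -0.42 (Pax7). For H3K9me3 against H3K27me3 they were -3.06 (Pax5, called higher with summed calls) and -2.29 (Pax4). With all CpGs they were 1.83 (Pax1), 2.99 (Pax9), 5.15 (Pax5) and 7.91 (Pax4) for H3K27me3 against H3K4me1, 26.7 (Pax9) for H3K9me3 against H3K4me1, -2.99 (Pax1) and -4.16 (Pax3) for 4000, -0.44 (Pax2), -1.10 (Pax7) and 0.18 (Pax4) for 20000, and -0.069 (Pax7) for 100000 cells. With the gene body alone they were -15.4 (Pax4, H3K9me3 against H3K27me3), -0.86 (Pax3, 4000), 0.78 (Pax4) and -1.16 (Pax6, 20000) and -0.050 (Pax9, 100000), and with 2 kb on both sides 0.0051 (Pax6, 4000), -0.84 (Pax6, 20000) and -0.048 (Pax9, 100000). In the added within-CpG pairs with H3K4me1, Pax8 turned to 0.31 (20000 cells, run 2), 1.67 (250000, run 1) and 1.77 (20000, run 1), and Pax5 to 2.26 and 3.85 (4000 cells, runs 2 and 1). The cause of these changes was not tested.

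The pooled level of the Pax windows was 26.1% (H3K4me1 run 2) and 48.8% (H3K27me3) as a mean of single CpGs, 12.3, 88.1 and 16.4% (H3K4me1, H3K9me3, H3K27me3) at CpGs with at least 5 calls, and 65.5% (H3K9me3) and 17.5% (H3K27me3) in gene bodies. The share under peaks was 7.77% (H3K4me1) and 47.5% (H3K27me3) with bisulfite lists alone, 9.02, 0.158 and 55.7% (H3K4me1, H3K9me3, H3K27me3) with control lists, and 11.2, 0 and 57.6% in gene bodies. With 50% of a peak required, recovery at 4000 cells was 0%. With a limit of 20%, 5 Pax windows held a 5-kb run. Start levels were 5.68% (H3K4me1) and 3.87% (H3K27me3) within 500 bp and 6.77% (H3K27me3) within 2000 bp. No culture was replicated, and depth limits H3K9me3 and 4000 cells most.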

Other observations

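Pax4 was the member that departed from the others in most readouts: no H3K4me1 peak, no bin under 15%, and levels above 66% in all 8 bisulfite libraries, although 52.4% of its window lay under H3K27me3 peaks. The H3K27me3 calls per CpG at Pax4 were 1.65 times the genome mean of the library from 250000 cells, against 4.73 at Pax8, the next lowest, and 26.3 at Pax1, the highest. Pax4 and Pax8 also had the 2 lowest CpG densities of the family, 11.3 and 8.61 CpGs per kb, against 22.1 at Pax6, the highest.

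The end of Pax2 held a second stretch of low methylation far from its 3 starts. A H3K4me1 peak of 4.05 kb there (chr19:44834776-44838821) had 10.6% of 8663 calls methylated in the H3K27me3 library and 11.2% of 428 in H3K4me1 run 2, and the window contains 1700039E22Rik as well.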
